A study of Mus musculus with 8 samples.

Results

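The 10 genes described here, En1, En2, Gbx2, Otx1, Otx2, Lhx2, Lhx9, Emx1, Emx2 and Pax6, encode homeodomain transcription factors that divide the embryonic neural tube into forebrain, thalamus, midbrain and hindbrain. They were chosen by gene symbol out of the 19201 genes measured in RNA from the hippocampi of wild-type and Mbd2-/- mice, and all 10 symbols were found. En2 and Gbx2 were selected on this same contrast for their large and opposite differences, so their values are given as a description and carry no test. Each genotype had 4 libraries, each made from 2 mice of 10 to 12 weeks, so that a replicate is a pool and not a single animal. Both genotypes had a C57BL/6 background, the mice were littermates born to heterozygous parents, and both sexes were combined. The Mbd2-/- line lacks Mbd2, a protein that binds methylated CpG sites, in every cell from conception, and it keeps the first exon of the gene, so that some reads on Mbd2 remain. Mbd2 had 295, 363, 371 and 354 normalized counts in the wild-type libraries and 244, 240, 339 and 217 in the Mbd2-/- libraries, of which replicate 3 lay within the wild-type range, and a count over the whole gene, first exon included, cannot check the genotype of a single library. Mbd2 averaged 260 ± 54.2 (SD, n = 4) normalized counts in the Mbd2-/- libraries against 346 ± 34.4 (SD, n = 4) in the others, with a log2 fold change of -0.43 ± 0.12 (SE, adjusted p = 0.0174, limma with Benjamini-Hochberg adjustment).

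Homeodomain proteins bind DNA through a domain encoded by a sequence called the homeobox, and their combinations give each brain region its identity before neurons form. At the boundary of midbrain and hindbrain, Otx2 on the forebrain side and Gbx2 on the hindbrain side repress each other, and the engrailed genes En1 and En2 are switched on around the signalling centre that forms there, the isthmic organizer. In the adult, some of the same genes mark mature cell types: Otx2 is made by the choroid plexus, the epithelium that secretes cerebrospinal fluid, Gbx2 and Lhx9 belong to the thalamus, and Lhx2, Emx1, Emx2 and Pax6 to the cortex, the hippocampus and their stem cells.

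Most of these genes have a near copy elsewhere in the genome, and the comparison below rests on reads being assigned to the right copy. The homeobox is the stretch in which copies are most alike. It is printed for the engrailed, Otx and Lhx pairs from the longest coding transcripts of GENCODE vM1 on mm9, in lower case, with capitals at each base that differs from the partner.
En2: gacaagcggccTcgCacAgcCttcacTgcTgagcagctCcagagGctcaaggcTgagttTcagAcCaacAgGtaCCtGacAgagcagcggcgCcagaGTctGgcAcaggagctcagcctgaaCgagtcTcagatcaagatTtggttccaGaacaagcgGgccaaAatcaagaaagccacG
En1: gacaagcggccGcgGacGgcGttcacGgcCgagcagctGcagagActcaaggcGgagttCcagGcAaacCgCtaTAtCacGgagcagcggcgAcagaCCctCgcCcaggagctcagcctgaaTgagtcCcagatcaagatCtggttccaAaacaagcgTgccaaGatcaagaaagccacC
Otx2: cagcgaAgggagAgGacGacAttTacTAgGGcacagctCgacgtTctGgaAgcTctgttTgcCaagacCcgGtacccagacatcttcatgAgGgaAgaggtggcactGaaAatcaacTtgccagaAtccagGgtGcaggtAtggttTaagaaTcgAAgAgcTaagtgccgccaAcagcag
Otx1: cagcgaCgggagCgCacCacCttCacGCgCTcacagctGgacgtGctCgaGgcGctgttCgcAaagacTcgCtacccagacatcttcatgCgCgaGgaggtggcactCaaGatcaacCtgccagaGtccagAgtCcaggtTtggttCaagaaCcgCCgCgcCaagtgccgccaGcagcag
Lhx2: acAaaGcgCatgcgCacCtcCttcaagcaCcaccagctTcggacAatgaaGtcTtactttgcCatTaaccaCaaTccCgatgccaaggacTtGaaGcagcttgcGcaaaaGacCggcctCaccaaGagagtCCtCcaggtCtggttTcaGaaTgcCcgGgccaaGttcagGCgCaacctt
Lhx9: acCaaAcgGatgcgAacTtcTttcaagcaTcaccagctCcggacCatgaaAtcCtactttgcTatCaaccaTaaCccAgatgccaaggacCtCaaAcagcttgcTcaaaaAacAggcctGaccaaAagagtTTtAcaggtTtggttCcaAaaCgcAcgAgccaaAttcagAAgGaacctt
The homeobox of En2 lies on the plus strand at chr5:28496703-28496882 and that of En1 on the plus strand at chr1:122503494-122503673, each in exon 2 of 2. In Otx1, Otx2, Lhx2 and Lhx9 it is split between exons 4 and 5 of 5. Of its 180 bases, 150 are shared by En1 and En2 (83.3%), 144 by the Otx genes (80.0%), 143 by Lhx2 and Lhx9 (79.4%) and 142 by the Emx genes (78.9%), while the other 41 pairs of members share at least 42.2% and at most 108 bases. The longest run of bases that a pair has in common over the full transcripts is 18 in the Otx pair, 17 in the engrailed and Lhx pairs and 14 in the Emx pair, all shorter than a read of 100 bases.

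Values are normalized counts, in which reads are scaled by a size factor for each library, and 1 read was worth 0.531 to 1.59 of them. The libraries held 8087750 to 23790825 reads on genes, and these totals cover counting error only. Differences are Mbd2-/- minus wild-type on log2(normalized count + 1), and a gene was called when its adjusted p was under 0.05 over the 14504 genes whose normalized counts averaged 10 or more (limma with Benjamini-Hochberg adjustment). Nothing in the sources says that reads were counted by strand, so reads of an antisense gene cannot be told apart from those of its partner where they overlap. The tissue label held, since all 15 markers of hippocampal excitatory neurons passed the minimum, with a summed normalized count of 36480 to 37080 in wild-type and 32060 to 35460 in Mbd2-/- libraries.

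En2, the engrailed gene that patterns the midbrain and cerebellum, had normalized counts of 8.99, 15.0, 10.9 and 14.9 in the wild-type libraries and 88.1, 45.7, 70.1 and 83.6 in the Mbd2-/- libraries. These came from 6 to 28 reads per wild-type library and from 44 to 87 reads per Mbd2-/- library. The lowest Mbd2-/- library stood above the highest wild-type library, and the deepest library of all, wild-type replicate 4, was among the low ones. The mean was 71.9 ± 19.0 (SD, n = 4) against 12.5 ± 2.99 (SD, n = 4) in wild-type, a ratio of 5.77 and a log2 difference of 2.42 ± 0.23 (SE). With each library left out in turn, the log2 difference of En2 lay between 2.29 and 2.62. En2 lies at chr5:28492236-28500152 on the plus strand of mm9.

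En1, the close partner that acts earlier in the same territory, was nearly silent. It had 1, 4, 0 and 0 reads in the wild-type libraries and 0 reads in each Mbd2-/- library, a count that allows up to 3 reads per library. With a mean of 1.13 ± 1.44 (SD, n = 4) normalized counts in wild-type hippocampi it was under the minimum, and no fold is given. En1 lies at chr1:122498995-122505873 on the plus strand.

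**Figure D1:**
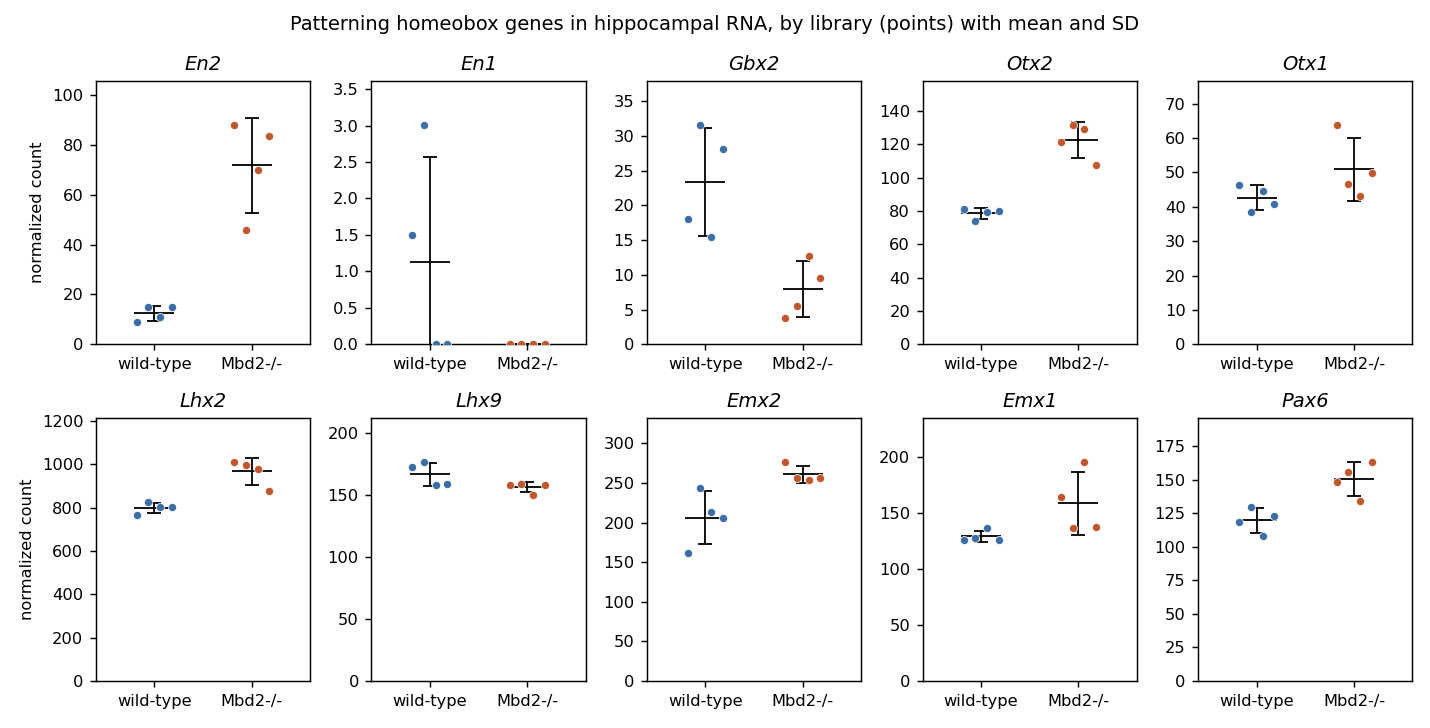
Normalized counts of the 10 genes in each library (points), with the mean (wide line) and SD (bars) of the 4 wild-type and 4 Mbd2-/- libraries; each panel has its own axis from 0, where the bar of En1 is clipped. En2, Otx2, Lhx2, Emx2 and Pax6 show every Mbd2-/- library above every wild-type library, and Gbx2 shows the opposite.

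The genes that work around En2 in the embryo gave no call among those tested. Of 14 isthmic organizer genes, 13 were listed and 7 passed the minimum, and limma called 0 of the 7 higher and 0 lower, with 2 higher and 0 lower at an unadjusted p under 0.05 and 0 in both directions by DESeq2 and edgeR. Without Mbd2-/- replicate 4, 1 of them was called higher. Among all tested genes, limma called 12.0% higher and 10.0% lower. In 2 of the 7, Dusp6 (0.13 on the log2 scale) and Spry2 (0.15), every Mbd2-/- library lay above every wild-type library. This separation was shown by 12.1% of all tested genes. Both genes dampen fibroblast growth factor signalling in many tissues. The summed normalized count of the 13 listed genes was 1989 to 2095 in wild-type and 2128 to 2298 in Mbd2-/- libraries, without overlap. Dusp6 averaged 873 and 959 normalized counts and Spry2 667.9 and 742 in wild-type and Mbd2-/- hippocampi. Together these 2 genes rose by more than the sum, which averaged 2059 and 2183. The median log2 fold change of the 7 was -0.04, against a median of -9.1e-05 over all tested genes. Fgf17, Pax2, Pax5, Pax8, Lmx1b and Cnpy1 were under the minimum in both genotypes, with Pax5, a partner of the engrailed genes in the isthmus, at 0.509 and 0.721 normalized counts in wild-type and Mbd2-/- hippocampi.

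Markers of the regions where En2 is known to stay active in the adult ranged from near 0 to well above En2 itself. Among 12 markers of midbrain and raphe neurons, 10 were listed and 3 passed the minimum, and their summed normalized count was 85.5 to 108.5 in wild-type and 88.4 to 125.9 in Mbd2-/- libraries, which overlap. Gata2, a transcription factor gene also used outside the midbrain, averaged 48.3 and 40.9 normalized counts in wild-type and Mbd2-/- hippocampi, and Tph2, the serotonin-synthesizing enzyme, 15.1 and 12.0, neither called. The dopamine transporter Slc6a3 averaged 4.18 and 3.00 normalized counts and the serotonin transporter Slc6a4 1.87 and 1.26 in wild-type and Mbd2-/- hippocampi. Th, the enzyme that starts dopamine synthesis, was also under the minimum, with 6.00, 6.02, 6.38 and 6.37 normalized counts in the wild-type libraries and 12.8, 11.9, 7.97 and 7.69 in the Mbd2-/- libraries, from 4 to 13 reads each. Its Mbd2-/- libraries were all above the wild-type libraries. Lmx1a, a homeobox gene of the midbrain floor and of the hem next to the hippocampus, was the one called gene of that list. Of 12 cerebellum markers, 11 were listed, 5 were tested, 3 were called higher and 1 lower. Among all tested genes, 12.0% were called higher and 10.0% lower, and the call of the midbrain list is read against the same shares. The sums of the cerebellum list, 264.8 to 289.3 in wild-type and 271 to 328.2 in Mbd2-/- libraries, overlapped. Fat2, a protocadherin-like gene of cerebellar granule cells, had a log2 fold change of 1.01 and the cadherin gene Cdh15 of 0.64, both called higher, and Cbln1, a synapse organizer, of -0.60 was called lower, whereas the granule cell receptor subunit Gabra6 averaged 1.18 and 3.16 normalized counts, under the minimum. Car8, the other higher call, averaged 60.05 in wild-type and 83.44 in Mbd2-/- hippocampi, Cbln1 67.3 and 45.1, and the glutamate transporter gene Slc1a6, which was not called, 99.85 and 94.45. The higher calls of the cerebellum list were 1 without wild-type replicate 2 and 1 by DESeq2, and the lower call was lost without Mbd2-/- replicate 2 or wild-type replicate 1, 2 or 4. Their part in the level of En2 was not tested.

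On the chromosome, the genes beside En2 were either not called or too low to test. Insig1, a regulator of sterol synthesis 87 kb away, had a log2 fold change of 0.09 (adjusted p = 0.263, limma with Benjamini-Hochberg adjustment), and Cnpy1, at 27.2 kb, averaged 2.13 normalized counts in wild-type and 1.99 in Mbd2-/- hippocampi.

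Gbx2, which sets the anterior hindbrain in the embryo and later marks thalamic neurons, had normalized counts of 18.0, 31.6, 15.5 and 28.1 in the wild-type libraries and 3.83, 5.49, 12.8 and 9.61 in the Mbd2-/- libraries. Each Mbd2-/- library held 3 to 10 reads on it, and each wild-type library 12 to 53. All Mbd2-/- libraries were below all wild-type libraries, with the nearest pair at 12.8 and 15.5. The mean was 7.92 ± 4.03 (SD, n = 4) against 23.3 ± 7.78 (SD, n = 4), a ratio of 0.340 and a log2 difference of -1.51 ± 0.34 (SE), and it lay between -1.75 and -1.25 with each library left out. Gbx2 lies at chr1:91824537-91829865 on the minus strand, and its neighbours Agap1 (32.7 kb, log2 fold change 0.01, adjusted p = 0.937) and Asb18 (19.3 kb, log2 fold change -0.31, adjusted p = 0.428) were not called (limma with Benjamini-Hochberg adjustment).

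Other genes of the thalamus and the adjoining habenula were lower as well. All 15 thalamus markers passed the minimum, limma called 10 of them lower and 0 higher (0 higher at an unadjusted p under 0.05 and 0 by DESeq2 and edgeR), and their median log2 fold change was -0.49. Among all tested genes, 10.0% were called lower and 12.0% higher. Both this list and the habenula list were chosen with earlier results of these data known. Rgs16, a regulator of G protein signalling, fell by 0.81 and the zinc finger gene Zic4 by 0.73 on the log2 scale. The summed normalized count of the list was 5416 to 5572 in wild-type and 3682 to 3941 in Mbd2-/- libraries, a ratio of 0.701. Of the 7 habenula markers, 3 were called lower, and their sum was 178.7 to 211.4 in wild-type and 104.7 to 129.9 in Mbd2-/- libraries, with 1 call left without wild-type replicate 4. In bulk tissue, fewer cells of a type and less RNA per cell cannot be told apart, and the part of these lists in the level of Gbx2 was not tested.

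Only En2 and Gbx2 are stated to have been picked for their difference between the genotypes, and 7 of the 8 remaining genes passed the minimum. Limma called 4 of the 7 higher (Otx2, Lhx2, Emx2 and Pax6) and 0 lower, with 5 higher and 0 lower at an unadjusted p under 0.05, and DESeq2 and edgeR gave 4 and 0 each. The 4 higher calls fell to 2 without Mbd2-/- replicate 1 or 2 or without wild-type replicate 1 or 4. Over all tested genes, 12.0% were called higher and 10.0% lower. In the same 4 genes every Mbd2-/- library lay above every wild-type library, a separation shown by 12.1% of all tested genes, and 11.5% of tested genes showed the opposite separation, which 0 of the 7 did. The set was put together with earlier results of these libraries known, and the counts describe these genes only.

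Otx2, which specifies forebrain and midbrain and stays on in the adult choroid plexus, had normalized counts of 80.9, 73.7, 79.3 and 80.2 in the wild-type libraries and 121, 132, 129 and 108 in the Mbd2-/- libraries. The genotypes were well separated, with replicate 4 the lowest of the Mbd2-/- libraries. Its mean rose from 78.5 ± 3.28 to 122 ± 10.8 (SD, n = 4 each), with a log2 fold change of 0.63 ± 0.11 (SE, adjusted p = 8.27e-04, limma with Benjamini-Hochberg adjustment). Otx2 was called in all 9 alternative analyses and with any of the 8 libraries left out. The antisense gene Otx2os1 was under the minimum, at 5.65 and 5.61 normalized counts, and the neighbours Tmem260 and Exoc5 each had a log2 fold change of -0.01. Otx2 lies at chr14:49277354-49287319 on the minus strand.

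The choroid plexus markers, which do not include Otx2, moved in the same direction. All 24 were tested and called higher, against 12.0% of all tested genes called higher and 10.0% lower. Their median on the log2 scale was 0.86, and limma, DESeq2 and edgeR each called 0 lower, as did an unadjusted p under 0.05. The list was chosen with earlier results of these data known, so its count describes these markers only. Oca2, a pigment gene, rose by 1.53 and Wfikkn2, a secreted protease inhibitor, by 1.35 on the log2 scale. Their summed normalized count was 26530 to 28180 in wild-type and 50190 to 56790 in Mbd2-/- libraries, a ratio of 2.00, while the ratio of Otx2 was 1.56. The part of this list in the level of Otx2, and in that of the other genes described here, was not tested.

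**Figure D2:**
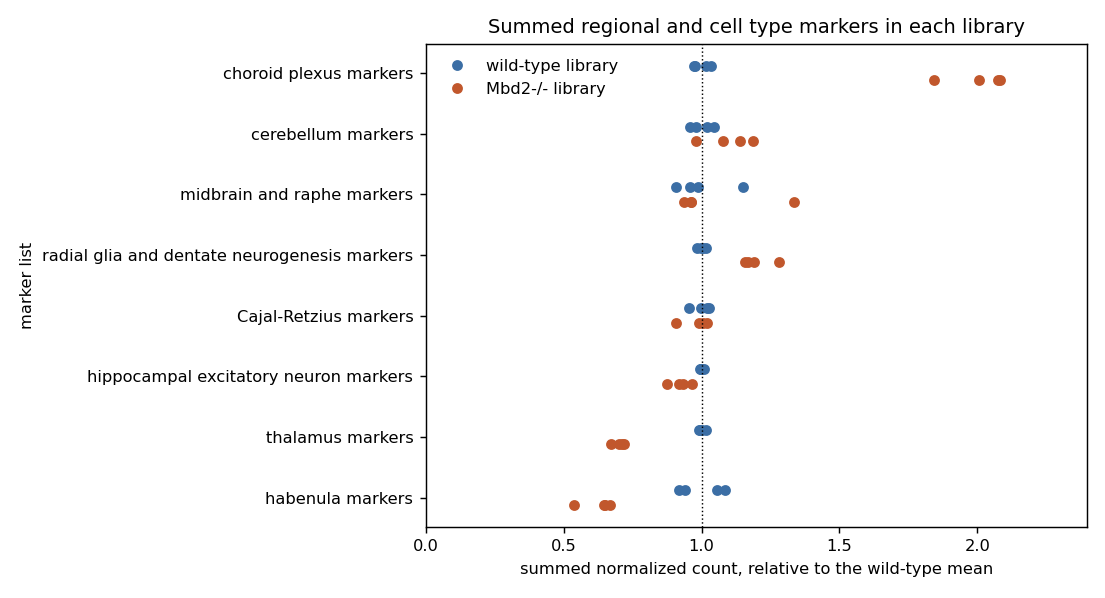
Summed normalized counts of 8 marker lists in each library, relative to the mean of the wild-type libraries (dotted line at 1); blue points are wild-type and orange points Mbd2-/- libraries. Choroid plexus markers lie near 2 in all Mbd2-/- libraries, thalamus and habenula markers lie below the wild-type libraries, and the cerebellum, midbrain and raphe, and Cajal-Retzius lists overlap.

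Otx1, the partner of Otx2 that acts in deep cortical layers, had normalized counts of 46.5, 38.4, 44.7 and 40.9 in the wild-type libraries and 63.8, 46.6, 43.0 and 50.0 in the Mbd2-/- libraries. Only replicate 1 of the Mbd2-/- libraries stood well above the rest, and the genotypes overlapped. The log2 fold change of 0.24 ± 0.16 (SE) was not called (adjusted p = 0.292, limma with Benjamini-Hochberg adjustment). The difference between the partners was tested directly as log2 Otx2 minus log2 Otx1 in each library. It was 0.39 higher in Mbd2-/- (SE 0.16), with an exact two-sided permutation p of 0.0857 for n = 4 against 4 libraries, and 0.129 after adjustment over the 3 pairs tested, so that a different response of the Otx genes was not shown. With the trend on transcript length removed the difference was 0.25 (exact permutation p = 0.171), and without Mbd2-/- replicate 1 the log2 fold change of Otx1 was 0.13 (adjusted p = 0.622, limma). Otx1 lies at chr11:21894767-21902900 on the minus strand.

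Lhx2, a selector of cortical and hippocampal identity that holds back the hem, was the most abundant of the 10 genes. It had normalized counts of 766, 825, 801 and 803 in the wild-type libraries and 1013, 997, 980 and 879 in the Mbd2-/- libraries. The genotypes did not overlap, and replicate 4 was again the lowest of the Mbd2-/- libraries. Its level rose from 799 ± 24.3 to 967 ± 60.1 (SD, n = 4 each), a log2 fold change of 0.27 ± 0.06 (SE, adjusted p = 0.00443, limma with Benjamini-Hochberg adjustment), and it was called in all 9 alternatives and with any of the 8 libraries left out. Lhx2 lies at chr2:38194801-38225253 on the plus strand.

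Lhx9, the partner of Lhx2 with expression in the thalamus, gave 172, 177, 158 and 159 normalized counts in the wild-type libraries and 158, 159, 150 and 158 in the Mbd2-/- libraries. The ranges overlapped, and the log2 fold change of -0.09 ± 0.08 (SE) was not called (adjusted p = 0.481, limma with Benjamini-Hochberg adjustment). As log2 Lhx2 minus log2 Lhx9, the difference within the pair was 0.36 higher in Mbd2-/- (SE 0.07), and each Mbd2-/- library exceeded each wild-type library. Its exact two-sided permutation p was 0.0286, the smallest that n = 4 against 4 libraries can give, and 0.0857 after adjustment over the 3 pairs, so it failed the correction. With the trend on transcript length removed the difference was 0.23, and the log2 fold change of Lhx9 alone was -0.00061 (adjusted p = 0.997, limma). Lhx9 lies at chr1:140721763-140745153 on the minus strand.

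Emx2, needed for the growth of the hippocampus and the dentate gyrus, had normalized counts of 162, 244, 213 and 206 in the wild-type libraries and 277, 257, 253 and 257 in the Mbd2-/- libraries. The wild-type libraries were spread more widely, with replicate 1 the lowest, and the genotypes came close without overlapping. Emx2 averaged 206 ± 33.8 in wild-type against 261 ± 10.8 in Mbd2-/- libraries (SD, n = 4 each), a log2 fold change of 0.35 ± 0.10 (SE, adjusted p = 0.0231, limma with Benjamini-Hochberg adjustment). It was called in all 9 alternatives but in 4 of the 8 analyses without 1 library. The call was lost without wild-type replicate 1 (adjusted p = 0.0768), wild-type replicate 4 (0.0544), Mbd2-/- replicate 1 (0.0751) or Mbd2-/- replicate 2 (0.0559). The antisense gene Emx2os, which starts next to it, averaged 142 ± 15.7 against 122 ± 8.92 normalized counts (SD, n = 4 each) and was not called (log2 fold change 0.21, adjusted p = 0.148). Emx2 lies at chr19:59533180-59539847 on the plus strand.

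Emx1, which marks the excitatory lineage of the cortex, had normalized counts of 126, 128, 137 and 126 in the wild-type libraries and 165, 136, 196 and 137 in the Mbd2-/- libraries. Replicate 2 of the Mbd2-/- libraries was within the wild-type range and replicate 4 just above it, so the genotypes overlapped. The log2 fold change of 0.28 ± 0.11 (SE) was not called (adjusted p = 0.0871, limma with Benjamini-Hochberg adjustment), and it was called without Mbd2-/- replicate 4 (adjusted p = 0.0183). Without Mbd2-/- replicate 3 it was 0.17 (adjusted p = 0.251) and with the trend on transcript length removed 0.15 (adjusted p = 0.377). Within the pair, log2 Emx2 minus log2 Emx1 differed by 0.07 (SE 0.17) between the genotypes, with an exact two-sided permutation p of 0.629 for n = 4 against 4 libraries, unchanged at 0.629 after adjustment over the 3 pairs. Emx1 lies at chr6:85137432-85154456 on the plus strand.

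Pax6, a regulator of radial glia and of the neural stem cells that persist in the dentate gyrus, had normalized counts of 118, 129, 108 and 123 in the wild-type libraries and 148, 155, 134 and 163 in the Mbd2-/- libraries. The groups were separated by the gap from 129 to 134. The mean was 150 ± 12.5 in Mbd2-/- against 120 ± 9.23 in wild-type hippocampi (SD, n = 4 each), a log2 fold change of 0.33 ± 0.10 (SE, adjusted p = 0.0277, limma with Benjamini-Hochberg adjustment). Pax6 was called in all 9 alternatives but in 3 of the 8 analyses without 1 library, and the call was lost without wild-type replicate 1 (adjusted p = 0.0629), 3 (0.0935) or 4 (0.0565) and without Mbd2-/- replicate 1 (0.058) or 2 (0.0772). Its antisense gene Pax6os1 was under the minimum, at 3.73 and 5.21 normalized counts, and Elp4, which overlaps its end, had a log2 fold change of -0.04. Pax6 lies at chr2:105509053-105543317 on the plus strand.

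**Figure D3:**
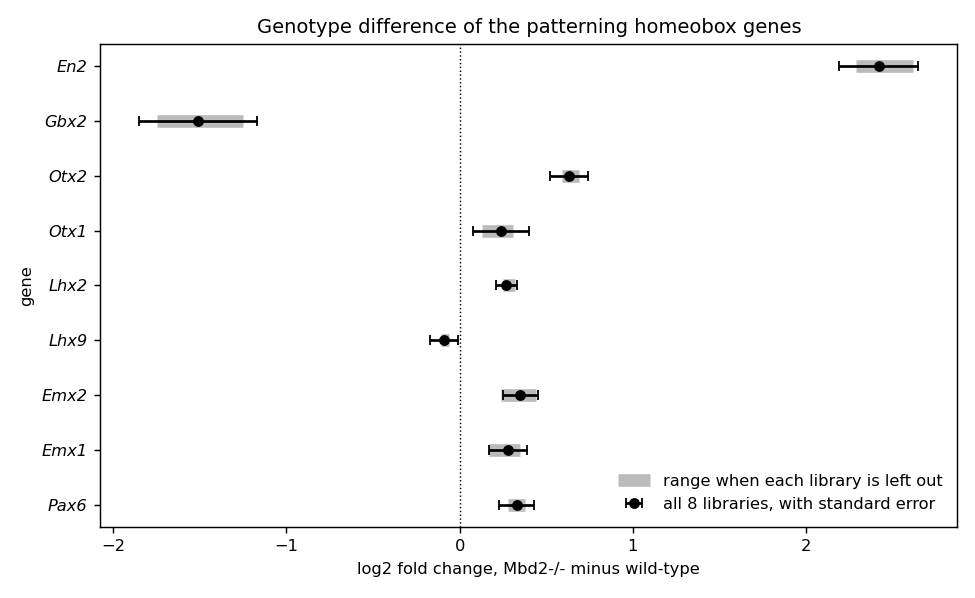
Log2 fold change of the 9 genes that passed the minimum, Mbd2-/- minus wild-type on log2(normalized count + 1); points and bars are the estimate and standard error over all 8 libraries, and grey bands span the estimates with each library left out. En2 at 2.42 and Gbx2 at -1.51, chosen for these values, lie far from the other 7 genes, which run from -0.09 to 0.63.

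Markers of stem cells were examined beside Pax6. Of 13 markers of radial glia and dentate neurogenesis, 3 were called higher and 0 lower, against 12.0% and 10.0% of all tested genes, with 7 higher and 0 lower at an unadjusted p under 0.05 and 0 lower by DESeq2 and edgeR, and their median log2 fold change was 0.16. Hes5, a Notch target of stem cells, rose by 0.56 and Hopx, a marker of quiescent stem cells, by 0.55 on the log2 scale, and Hopx is also counted on the wider homeobox list. Together with Sox2, the other call, they held most of the difference in the sum. The log2 fold change was negative in 4 genes of the list, all uncalled, at -0.23 for Eomes, -0.16 for Mki67 and -0.07 each for Dcx and Sox11, which mark dividing precursors and young neurons. The summed normalized count was 2921 to 3026 in wild-type and 3447 to 3811 in Mbd2-/- libraries. Markers of Cajal-Retzius cells, early neurons of the hippocampal fissure, gave 1 higher call (Cxcl14, 0.39) and 2 lower calls (Calb2, -0.56, and Reln, -0.28) among 6 tested genes, and those of hippocampal excitatory neurons 0 higher and 4 lower among 15, with Wfs1 at -0.31 and Fibcd1 at -0.29. At an unadjusted p under 0.05, 1 excitatory marker was higher and 7 were lower, and DESeq2 and edgeR called 0 higher and 4 lower. Without wild-type replicate 2 or 3, 2 excitatory markers were called lower, and without Mbd2-/- replicate 4, 1 was called higher. The part of these lists in the levels of Pax6, Emx2 and Lhx2 was not tested.

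Levels of different genes can be compared per kb of the longest transcript. In wild-type hippocampi Lhx2 led with 349 ± 10.6 normalized counts per kb (SD, n = 4), followed by Emx1 with 82.7 ± 3.32 and Emx2 with 79.4 ± 13.0, which did not differ beyond their spread. Otx2 with 34.4 ± 1.43 and Lhx9 with 33.7 ± 1.95 did not differ beyond theirs either. Pax6 followed with 14.2 ± 1.10, Otx1 with 8.08 ± 0.693 and Gbx2 with 5.50 ± 1.84. The ranges of Otx1 and Gbx2 within 1 SD were apart, and En2 with 2.50 ± 0.600 and En1 with 0.287 ± 0.367 came last. In Mbd2-/- hippocampi En2 reached 14.4 ± 3.82 normalized counts per kb (SD, n = 4), within the spread of both Pax6 at 17.9 ± 1.49 and Otx1 at 9.65 ± 1.73, and above Gbx2 at 1.87 ± 0.952. Otx2 at 53.6 ± 4.73 then lay above Lhx9 at 31.6 ± 0.873, and the order of the other genes was as in wild-type hippocampi.

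**Figure D4:**
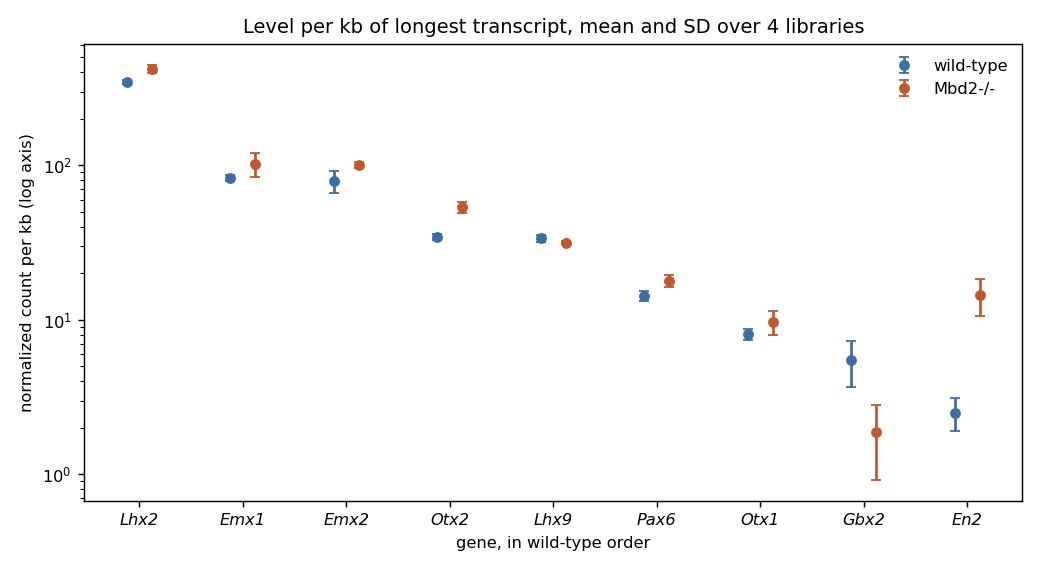
Normalized count per kb of the longest transcript on a log axis, as the mean and SD over 4 wild-type (blue) and 4 Mbd2-/- (orange) libraries, for the 9 genes that passed the minimum in wild-type order. En2 changes place, from 2.50 to 14.4, and Gbx2 drops to the end at 1.87.

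A wider list of 70 other regional homeobox genes was read against the 12.0% of all tested genes called higher and the 10.0% called lower. Of these, 65 were listed and 33 passed the minimum, with 5 called higher, 6 lower and a median of -0.13 on the log2 scale. Lmx1a rose from 11.1 ± 3.02 to 26.9 ± 6.89 normalized counts (SD, n = 4 each), a log2 fold change of 1.21, and Nkx2-2, a regulator of oligodendrocyte precursors and ventral neurons, rose by 0.61 on the log2 scale. Shox2, expressed in thalamic and habenular territories, fell by 1.24 and Pou4f1, a transcription factor of habenular neurons that is also on the habenula list, fell by 1.14. Single libraries moved both counts. The lower calls were 2 without Mbd2-/- replicate 1 or wild-type replicate 3, 3 without Mbd2-/- replicate 2 or wild-type replicate 1 or 4, and at most 9, and the higher calls were 3 without Mbd2-/- replicate 3 or wild-type replicate 1 and at most 7. Partners of homeodomain proteins, such as Pbx, Meis, Ldb and Tle proteins, gave 2 higher and 2 lower calls among 24 tested genes with a median of 0.00, and this count is read against the same shares. Ssbp4 (0.24) and Lmo4 (0.17), both partners in LIM complexes, were called higher, and the corepressor genes Tle2 (-0.43) and Tle3 (-0.23) were called lower. The higher calls of this list were 4 without Mbd2-/- replicate 4, 1 without Mbd2-/- replicate 3 or wild-type replicate 4 and 0 without any other library, 0 with the trend on transcript length removed or with no minimum, and 1 with TMM scaling, and the lower calls were 4 without Mbd2-/- replicate 4 and 1 without wild-type replicate 1 or 3 or with that trend removed.

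The genes nearest to the 10 members on either side were examined as well, and 12.0% of all tested genes were called higher and 10.0% lower. Of 22 neighbouring or antisense genes, 20 were tested, 4 were called higher (Wdpcp 0.32, Nek6 0.25, Sfxn5 0.18 and Immp1l 0.38 on the log2 scale), 2 lower (Ehbp1 and Rab11fip2, -0.20 each) and 14 were not called. The neighbours that were called lie beside Otx1, Lhx2, Emx1, Emx2 and Pax6, and none beside En2 or Gbx2.

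Other genes were compared with En2 by their pattern over libraries. On log2(normalized count + 1) over the 8 libraries, 393 tested genes had a Pearson's r above 0.9 with En2, and 34 had one with each genotype mean subtracted. The first were led by Ankra2 (0.99), Sdhaf4 (0.987), Ppp1r3c (0.986), Bnip3 (0.985) and Clic6 (0.983), the last of them a choroid plexus marker. These values include the gap between the genotypes for which En2 was picked. With each genotype mean subtracted, the leading genes were Nmi (0.986), Homez (0.975), Ikbkb (0.962), Fhdc1 (0.959) and Mta1 (0.958). For Gbx2, 45 genes passed 0.9, and 24 within genotypes. The 45 were led by Adgrl2 (0.978), Kcna5 (0.963), Slc23a2 (0.961), Ecel1 (0.957) and Entpd7 (0.948), and within genotypes the leaders were Chst9 (0.968), Ubl3 (0.957), C030039L03Rik (0.945), Erich5 (0.944) and Klhl33 (0.94). For Otx2, 667 genes passed 0.9, and 170 within genotypes. The 667 were led by Rpl7, Cycs and Cd63 (0.993 each), Hey1 (0.992) and Ace (0.991), and within genotypes the leaders were Rpl6 (0.994), Ephb1 (0.993), Tbc1d22b (0.989), Got1 (0.985) and Ppp2r1a (0.982). The leading genes of each member differed between the measures, which share the same 8 libraries and their depth, and the values are a description. An r above 0.9 over 8 libraries also arises by chance among 14504 genes, and how many genes would reach it was not estimated. The counts and the named genes therefore cannot be read as shared expression beyond chance.

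The promoters of these genes, as the 250 bases before and 50 after each RefSeq start in GRCm38.p6, vary in their CpG sites, the sites to which Mbd2 binds when they are methylated. For the letters CG, which read the same on both strands, 8 genes had 13 promoters with 6 to 37 sites, against a median of 7 over 32851 promoters, of which 94.6% hold at least 1. Emx1 had 37, a number that 5.58% of all promoters reach, Lhx2 had 34 and 29 in its 2 promoters (7.73% and 12.9%), Gbx2 had 27 (reached by 15.5%), Emx2 26 (16.9%) and En1 23 (21.5%). Pax6 had 18 and 16 sites in its 2 promoters. Otx2 had 6, 8, 16 and 11 sites in its 4 promoters, and Lhx9 had 6. En2 and Otx1 were without an entry. Methylation was not measured in these libraries.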

How the data were processed

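Hippocampal RNA of 4 wild-type and 4 Mbd2-/- pools was depleted of ribosomal RNA and sequenced as paired reads of 100 bases. The authors removed duplicates, aligned reads to mm9 with STAR and compared genotypes with DESeq2, and the counting tool and versions are not given in the sources used here. The deposited signal of each library is the count of reads on a gene divided by the size factor, made by the authors. Their log2 fold changes and standard errors, the test score, and the p-value and adjusted p-value, all deposited, hold their own comparison and were not used. Reads were recovered by dividing by the smallest value above 0, and 100% came out whole within 0.01.

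Genes whose normalized counts averaged 10 or more entered limma 3.58.1 (R 4.3.3) as log2(normalized count + 1) (trend, robust, two-sided, Benjamini-Hochberg adjustment at 0.05). The alternatives were pseudocounts of 0.5 and 5, no minimum and a minimum of 50, TMM scaling, removal of a trend with transcript length, a replicate block, leaving out each library, and DESeq2 1.42.0 (2970 genes called) or edgeR 4.0.16 (3231) on the reads. Partner genes were compared with exact permutation tests (SciPy 1.17.1). The fit was tested on simulated data. GENCODE vM1 matched 18102 symbols (94.3%). Nothing in the labels ties replicates to separate litters, so p-values measure the spread between these pools.

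The 10 genes and all lists were chosen with earlier results of these data known. Named genes are the 10, Mbd2, their nearest neighbours and antisense genes, at most 2 called genes per list and direction with the largest change, and the 5 genes most like En2, Gbx2 and Otx2. Sox2, Car8, and list genes given by value that were under the minimum or not called, were named after their values were seen.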

Additional observations from a re-analysis of the deposited data

Results flagged for a closer look

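Within groups of 4 libraries, 44 groups of values were searched for a library far from the other 3 by Dixon's criterion, which chance passes in about 1 in 20 groups, and 4 groups passed. Lhx9 had 149.8 normalized counts in Mbd2-/- replicate 3, below 157.6 to 159.1 in the other Mbd2-/- libraries. Emx2 had 277.1 in Mbd2-/- replicate 1, above 253.4 to 257. The summed habenula markers were 104.7 in Mbd2-/- replicate 4, below 125.9 to 129.9, and the summed midbrain and raphe markers were 125.9 in Mbd2-/- replicate 3, above 88.41 to 90.66. The low value of Lhx9 and the high value of Emx2 came from different libraries, and no library was set apart in more than 2 of the 44 groups.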

How the results depend on the processing

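The 4 higher calls among Otx1, Otx2, Lhx2, Lhx9, Emx1, Emx2 and Pax6 were 4 under each of the 9 alternative analyses and ranged from 2 to 5 with each library left out, with 2 without Mbd2-/- replicate 1 or 2 and wild-type replicate 1 or 4, and the lower calls were 0 throughout. Over all tested genes, 1735 higher and 1450 lower calls (54.5% higher) became 1388 and 749 (65% higher) with the trend on transcript length removed, and the lower calls ranged from 868 without wild-type replicate 1 to 2559 without Mbd2-/- replicate 4. Among the other regional homeobox genes, the 6 lower calls became 3 with the length trend removed and ranged from 2 to 9 with each library left out, and the 5 higher calls from 3 to 7. The difference within the Lhx pair ranged from 0.3262 to 0.4129 with each library left out, always at an exact permutation p of 0.0571, the smallest that 4 against 3 allows, and that within the Otx pair from 0.2913 to 0.5072. With the length trend removed the differences of the Lhx, Otx and Emx pairs were 0.2264, 0.2465 and 0.1871. The Emx pair ranged from -0.0261 to 0.1936 and turned sign without wild-type replicate 1. En2, Gbx2 and Otx1 had no value at a minimum of 50. Over the 8 other alternatives, the log2 difference of En2 was 2.12 to 2.51 and that of Gbx2 -1.67 to -1.14. Depth limits En1 and Gbx2 most, with 0 to 4 and 3 to 53 reads per library.

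The labels do not give the replicate numbers as pairs, and deviations of same-numbered libraries correlated at -0.1033, -0.057, 0.0742 and 0.0355. Such low values cannot tell whether same-numbered libraries shared a litter or a batch. With the number as a replicate block, 1743 higher and 1449 lower genes were called over all tested genes, and the members kept 4 higher and 0 lower calls. With the replicate block, the higher calls of the other regional homeobox genes went from 5 to 6, with 6 lower as before, and those of the cofactor list from 2 to 1.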
